A study of Mus musculus with 6 samples.

Results

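Genes that make, sense, import, move, store and export cholesterol were followed in heat-producing brown adipose tissue of mice that differ in FAM195A genotype. The set held 32 genes, taken by symbol from the 24062 gene symbols of the count table. It was made up of 19 enzymes of sterol synthesis, 4 genes that control the SREBP transcription factors, 4 genes of LDL uptake control and intracellular sterol transport, 4 genes of LXR-driven efflux, and the esterifying enzyme gene Soat1. All 32 were found and all 32 passed the filter on low counts, with 38 (Soat1) to 21292 (Insig1) reads per library.

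The series concerns FAM195A, described there as a stress granule protein that binds RNA and is needed to make heat in the cold. RNA came from 3 male C57BL/6 mice labelled FAM195A knockout and 3 labelled heterozygous, all 12 weeks old, and no group is labelled wild type. The sources used here do not give the kind of allele, the housing temperature or whether animals were littermates. Of the libraries, knockout 1 and 2 and heterozygous 1 and 2 have titles that begin with RF, and knockout 3 and heterozygous 3 have titles that begin with RE, a prefix whose meaning is not given.

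Reads counted in genes numbered 22418031 to 25084627 in the knockout-labelled libraries and 18781401 to 20471963 in the heterozygous-labelled ones. Fam195a itself stood at 50.5, 82.0 and 81.3 CPM (read counts on a common library size) in knockout 1, 2 and 3, against 69.0, 70.5 and 103 CPM in heterozygous 1, 2 and 3. The groups overlapped, so the level of this transcript does not separate the labels (log2 fold change -0.18, adjusted p = 0.896 by edgeR), and all directions below are those of the knockout-labelled libraries. A count per gene cannot tell which part of the transcript remained. All 8 brown adipocyte markers examined were expressed, with summed levels of 20339 to 25535 CPM in the knockout-labelled libraries and 20076 to 21049 CPM in the heterozygous-labelled ones. Fabp4 alone stood at 9141 to 12355 CPM. Of the 8 markers, 3 had log2 fold changes above 0 and 5 below, and Cidea was higher in every knockout-labelled library. Ucp1 was lowest in knockout 3 and heterozygous 3 (1647 and 2963 CPM, against 4390 to 5693 CPM in the RF-titled libraries). Adipoq was highest in knockout 3 and heterozygous 3 (1302 and 1261 CPM, against 616 to 918 CPM). The 15 skeletal muscle markers summed to 3320 to 5873 CPM in the knockout-labelled libraries and 9572 to 28114 CPM in the heterozygous-labelled ones. All 15 had log2 fold changes below 0 (median -2.22). By edgeR 0 passed (0.586% of all genes did), and 15 were lower at an unadjusted p under 0.05 (8.04% of all genes). DESeq2 called 15 lower (4.44% of the genes it gave an adjusted p). The lowest level of any was 42.0 CPM. Muscle RNA moved with the labels, and its part in the results was not tested apart from a fit that holds a muscle score, whose values are given beside many of the genes. Endothelial markers summed to 577 to 591 CPM in the knockout-labelled libraries and 482 to 633 CPM in the heterozygous-labelled ones, and fibroblast markers to 524 to 825 CPM in the knockout-labelled libraries and 517 to 890 CPM in the heterozygous-labelled ones. In tissue of mixed cells, fewer cells of a type and less RNA per cell cannot be told apart.

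Cells make cholesterol from acetyl-CoA through mevalonate, farnesyl diphosphate, squalene and lanosterol. When membrane sterol is low, SCAP carries SREBP2 from the endoplasmic reticulum to the Golgi, where it is cut to release a transcription factor that switches on synthesis genes. When sterol is plentiful, the INSIG proteins hold SCAP back, and oxysterols activate the LXR receptors, which switch on export through ABCA1 and ABCG1. Brown fat is best known for making and burning fatty acids, and fat tissue also holds a store of cholesterol in its droplets and membranes.

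Promoter sequences were searched for letters that factors of sterol control are known to bind. RefSeq windows on GRCm38.p6, each running from 250 bases before to 50 after an annotated start, were matched for 26 of the 32 genes; Fdps, Fdft1, Sqle, Stard4, Npc1 and Abcg1 were not matched. The 250 upstream bases of 6 genes are given because the results turn on these genes: 4 synthesis and SREBP control genes whose groups did not overlap (Insig1, Mvd, Cyp51 and Srebf2), the mevalonate pathway gene Hmgcs1 whose groups did, and the efflux gene Abca1. Capitals mark the letters CCAAT, which the factor NF-Y binds and which read ATTGG on the other strand, the sterol regulatory element letters TCACNCCAC, and a direct repeat of the kind LXR binds, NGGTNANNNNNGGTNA.
Insig1, chr5:28071162-28071411, plus strand: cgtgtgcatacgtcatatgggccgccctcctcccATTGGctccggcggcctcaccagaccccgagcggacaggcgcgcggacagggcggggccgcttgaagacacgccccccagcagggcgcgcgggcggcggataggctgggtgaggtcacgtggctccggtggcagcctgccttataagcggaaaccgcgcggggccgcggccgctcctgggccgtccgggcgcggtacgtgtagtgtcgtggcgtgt
Mvd, chr8:122443423-122443672, minus strand: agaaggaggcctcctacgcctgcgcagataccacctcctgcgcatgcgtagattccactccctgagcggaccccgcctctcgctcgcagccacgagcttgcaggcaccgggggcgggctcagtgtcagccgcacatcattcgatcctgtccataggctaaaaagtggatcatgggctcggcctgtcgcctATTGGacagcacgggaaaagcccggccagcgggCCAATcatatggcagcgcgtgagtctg
Cyp51, chr5:4104698-4104947, minus strand: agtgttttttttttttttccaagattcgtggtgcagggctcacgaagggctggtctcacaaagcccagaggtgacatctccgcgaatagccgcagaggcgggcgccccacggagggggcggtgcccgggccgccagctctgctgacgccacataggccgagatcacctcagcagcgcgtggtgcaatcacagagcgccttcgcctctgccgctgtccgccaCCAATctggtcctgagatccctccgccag
Srebf2, chr15:82147019-82147268, plus strand: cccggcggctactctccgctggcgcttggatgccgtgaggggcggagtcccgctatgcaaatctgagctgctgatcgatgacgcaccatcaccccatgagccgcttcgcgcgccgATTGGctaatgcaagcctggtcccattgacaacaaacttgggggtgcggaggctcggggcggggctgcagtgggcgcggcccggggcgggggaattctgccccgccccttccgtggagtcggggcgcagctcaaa
Hmgcs1, chr13:119690101-119690350, plus strand: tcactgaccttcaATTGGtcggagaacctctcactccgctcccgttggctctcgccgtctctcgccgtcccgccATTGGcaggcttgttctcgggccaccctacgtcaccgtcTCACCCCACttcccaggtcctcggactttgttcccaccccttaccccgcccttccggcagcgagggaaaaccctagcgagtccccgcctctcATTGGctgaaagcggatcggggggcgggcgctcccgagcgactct
Abca1, chr4:53159896-53160145, minus strand: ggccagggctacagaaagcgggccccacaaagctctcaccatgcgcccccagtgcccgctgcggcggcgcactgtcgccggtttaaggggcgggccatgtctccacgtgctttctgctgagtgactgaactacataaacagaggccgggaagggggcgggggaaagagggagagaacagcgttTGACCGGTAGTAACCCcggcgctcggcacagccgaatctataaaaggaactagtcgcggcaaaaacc

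The CCAAT letters, searched on both strands, were in the windows of 15 of 16 matched synthesis genes and of 3 of 4 SREBP control genes (Insig1, Insig2 and Srebf2). They were in 0 of 3 matched efflux and LXR genes (Abca1, Nr1h2 and Nr1h3). Of 9991 genes that were tested and had a window, 42.5% held them. The sterol element letters were in the Hmgcs1 window alone, 137 bases before the start, against 1.41% of tested genes. The LXR repeat letters were in the Abca1 window alone, 67 bases before the start on the other strand, against 0.55% of tested genes. GGGCGG, the letters of the GC box, was in 15 of 16 synthesis genes and 1 of 3 efflux genes, against 68% of tested genes. The marked letters of different motifs do not overlap in the 6 printed sequences. A match is a run of letters, and the absence of one says only that these letters are not in this window.

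Per kilobase of exon, Insig1 was the most abundant of the 32 transcripts, with a mean of 191 RPKM (CPM per kilobase of exon) over the 6 libraries. Pmvk, mevalonate phosphate kinase, followed at 102 RPKM, then Acat2, the cytosolic thiolase that starts the pathway (89.2 RPKM), Npc2, a lysosomal sterol carrier (84.9 RPKM), Hmgcs1 (75 RPKM) and the squalene synthase gene Fdft1 (56.9 RPKM). The efflux genes lay in the middle, with Nr1h3 at 26.7, Nr1h2 at 20.9 and Abca1 at 19.2 RPKM, and Abcg1 low at 1.41 RPKM. Stard4, a cytosolic sterol carrier (0.831 RPKM), and Soat1 (0.245 RPKM) were lowest. Acat2 shares 97.7% identity over 1477 bases with Acat3. Processed pseudogenes match Idi1 at up to 100% and Fdft1 at 97.4% identity over part of their length. Some reads of these genes may therefore align to more than 1 place and be missing from their counts.

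No gene of the set passed the threshold in either direction. By edgeR's quasi-likelihood test with Benjamini-Hochberg adjustment over 13300 genes, 0 of 32 were called higher, against 0.0526% of all genes tested, and 0 were called in either direction, against 0.586%. At an unadjusted p under 0.05, 6 of 32 were higher in the knockout-labelled libraries (4.05% of all genes) and 0 were lower (8.04% of all genes). In 7 of 32 all 3 knockout-labelled libraries lay above all 3 others, or 21.9% of the set against 8.11% of all genes, and in 0 of 32 they lay below, against 9.89%. DESeq2 called 4 of 32 higher (0.815% of the genes it gave an adjusted p) and 0 lower (4.44%). With the title prefix as a covariate edgeR called 2 higher (0.504% of all genes) and 0 lower (1.83%).

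The synthesis genes leaned higher in the knockout-labelled libraries and the efflux genes did not lean either way. The median log2 fold change was 0.43 over the 19 synthesis genes and 0.02 over the 4 efflux and LXR genes, beside 0.02 over all genes tested. Of the synthesis genes, 15 of 19 had values above 0, and of the efflux genes 2 of 4, beside 53.1% of all genes tested. The synthesis median stayed above 0 under every alternative run (0.084 to 0.68), while the efflux median changed sign between them (-0.23 to 0.15). All 7 genes whose groups did not overlap were synthesis or SREBP control genes: Insig1, Sqle, Mvd, Cyp51, Msmo1, Sc5d and Srebf2. They made up 5 of 19 synthesis genes (26.3%) and 0 of 4 efflux genes, against 8.11% of all genes. With 4 efflux genes, 0 cannot be told from that share. The mean log2 CPM of the synthesis genes was 5.90, 5.54 and 5.80 in knockout 1, 2 and 3, against 5.58, 5.40 and 4.92 in heterozygous 1, 2 and 3. That of the efflux genes was 5.63, 5.54 and 6.08 in knockout 1, 2 and 3, against 5.79, 5.53 and 6.02 in heterozygous 1, 2 and 3. For synthesis the groups overlapped only through knockout 2 and heterozygous 1, while the efflux mean was high in both RE-titled libraries whatever their label. Abca1 and Abcg1 had this order, and Nr1h3 did not. Nr1h2 had the opposite order, at 62.2 CPM in knockout 3 and 59.6 CPM in heterozygous 3, against 68.4 to 82.4 CPM in the RF-titled libraries.

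**Figure D1:**
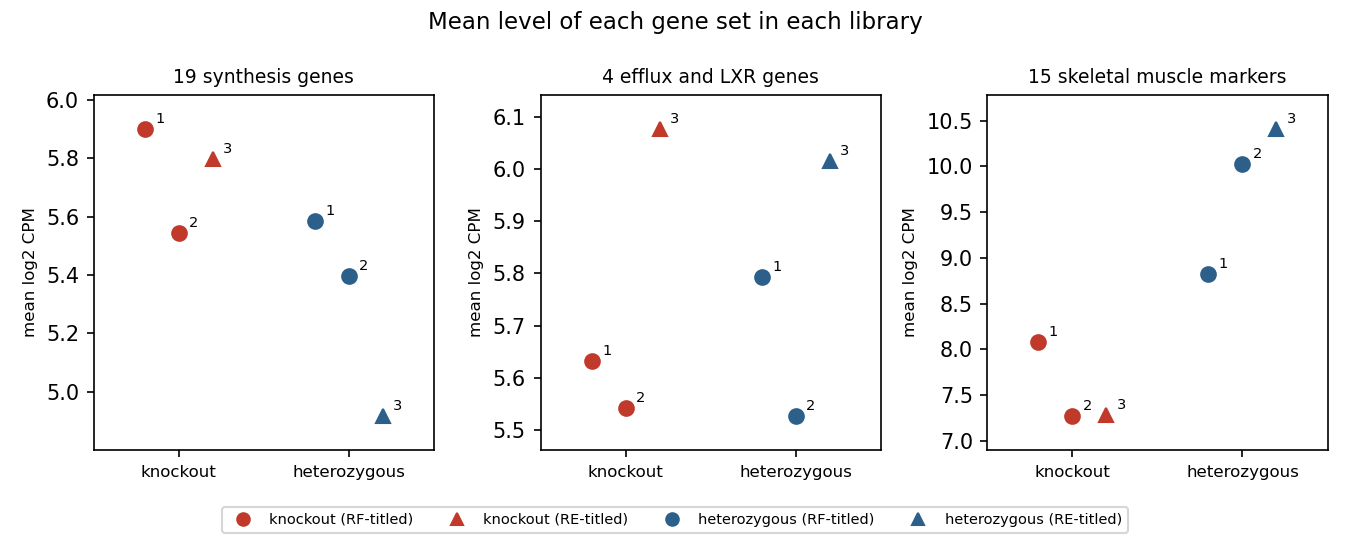
Mean log2 CPM (vertical axes, scaled to each panel and not starting at 0) of the 19 synthesis genes, the 4 efflux and LXR genes and the 15 skeletal muscle markers, with 1 point per library numbered by replicate. Heterozygous 3 is lowest for synthesis (4.92) and highest for muscle markers (10.4), while the efflux means of the groups overlap.

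Synthesis minus efflux, as a difference of these means, was 0.27, 0.0028 and -0.28 in knockout 1, 2 and 3, against -0.21, -0.13 and -1.10 in heterozygous 1, 2 and 3. It averaged -0.0029 ± 0.272 in the knockout-labelled libraries and -0.48 ± 0.536 in the heterozygous-labelled ones (SD, n = 3 each), and the groups overlapped. Heterozygous 3 was lowest of the 6 libraries for 15 of the 19 synthesis genes. Without it the synthesis median was 0.24 and its difference from the efflux median 0.099, against 0.41 with all libraries. The synthesis median was 0.26 without knockout 1 and 0.68 without heterozygous 1, and the difference 0.15 and 0.71. With the muscle score (the 15 marker levels averaged on the log2 scale) as a covariate, the synthesis median was 0.084 and the efflux median -0.23, a difference of 0.31. The score was 8.08, 7.27 and 7.28 in knockout 1, 2 and 3, against 8.82, 10.02 and 10.4 in heterozygous 1, 2 and 3, so it does not overlap between labels and the covariate leaves little of the genotype contrast to test.

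**Figure D2:**
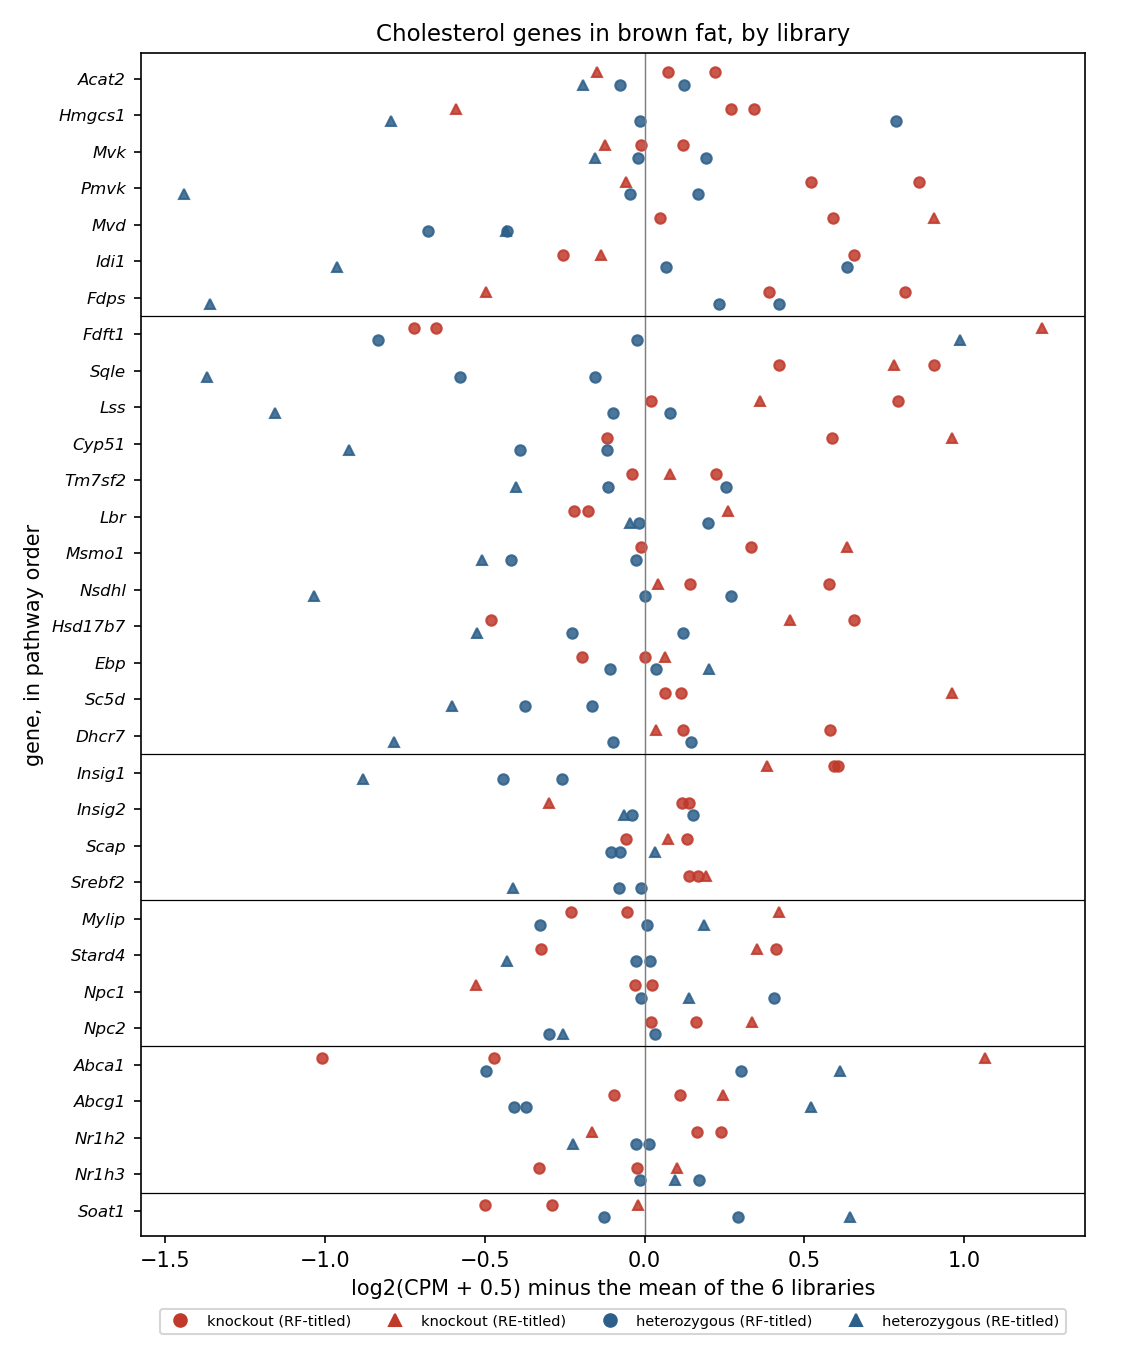
Level of each of the 32 genes in each library as log2(CPM + 0.5) minus the gene's mean over the 6 libraries (horizontal axis); circles are RF-titled and triangles RE-titled libraries, and lines part the roles. The blue triangle, heterozygous 3, lies farthest left for 15 of the 19 synthesis genes, and no such order is seen among the efflux genes.

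In the mevalonate arm, from acetyl-CoA to farnesyl diphosphate, the median log2 fold change over 7 genes was 0.10. Mvd, the decarboxylase that makes isopentenyl diphosphate (ENSMUSG00000006517.5, chromosome 8, 122433601 to 122443422 on GRCm38, minus strand), stood at 20.8, 14.2 and 26.1 CPM in knockout 1, 2 and 3, against 10.03, 8.37 and 10.01 CPM in heterozygous 1, 2 and 3. Its lowest knockout-labelled value was 1.41 times its highest heterozygous-labelled one. It averaged 20.4 ± 5.97 CPM in the knockout-labelled libraries and 9.47 ± 0.954 CPM in the heterozygous-labelled ones (SD, n = 3 each). The log2 fold change was 1.10 (SE 0.239, adjusted p = 0.0805 by edgeR and 0.00187 by DESeq2), and 1.06 with the muscle score as a covariate.

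The other genes of this arm had overlapping groups. Hmgcs1, which makes HMG-CoA and holds the sterol element shown above, stood at 408, 388 and 213 CPM in knockout 1, 2 and 3, against 319, 555 and 186 CPM in heterozygous 1, 2 and 3 (log2 -0.07, SE 0.415, adjusted p = 0.98 by edgeR). The groups overlapped fully, and the lowest value of each was its RE-titled library. Pmvk stood at 286, 226 and 151 CPM in knockout 1, 2 and 3, against 177, 153 and 57.6 CPM in heterozygous 1, 2 and 3 (log2 0.78, SE 0.42, adjusted p = 0.582 by edgeR). Here knockout 3 lay among the heterozygous-labelled libraries, though within each prefix the knockout-labelled values were the higher ones. With the title prefix in the fit its log2 fold change was 0.88 (adjusted p = 0.0587 by edgeR), and with the muscle score 0.12; its 95% interval of -0.21 to 1.76 holds the value of Mvd. Fdps, farnesyl diphosphate synthase, stood at 103, 76.8 and 41.3 CPM in knockout 1, 2 and 3, against 78.6, 68.9 and 22.5 CPM in heterozygous 1, 2 and 3. In annotation Fdps shares 1124 exonic bases with the overlapping gene model Gm43738 on the same strand. The log2 fold changes were 0.10 for Acat2, -0.01 for the mevalonate kinase gene Mvk and 0.10 for the isomerase gene Idi1, each with a 95% interval that spans 0.

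**Figure D3:**
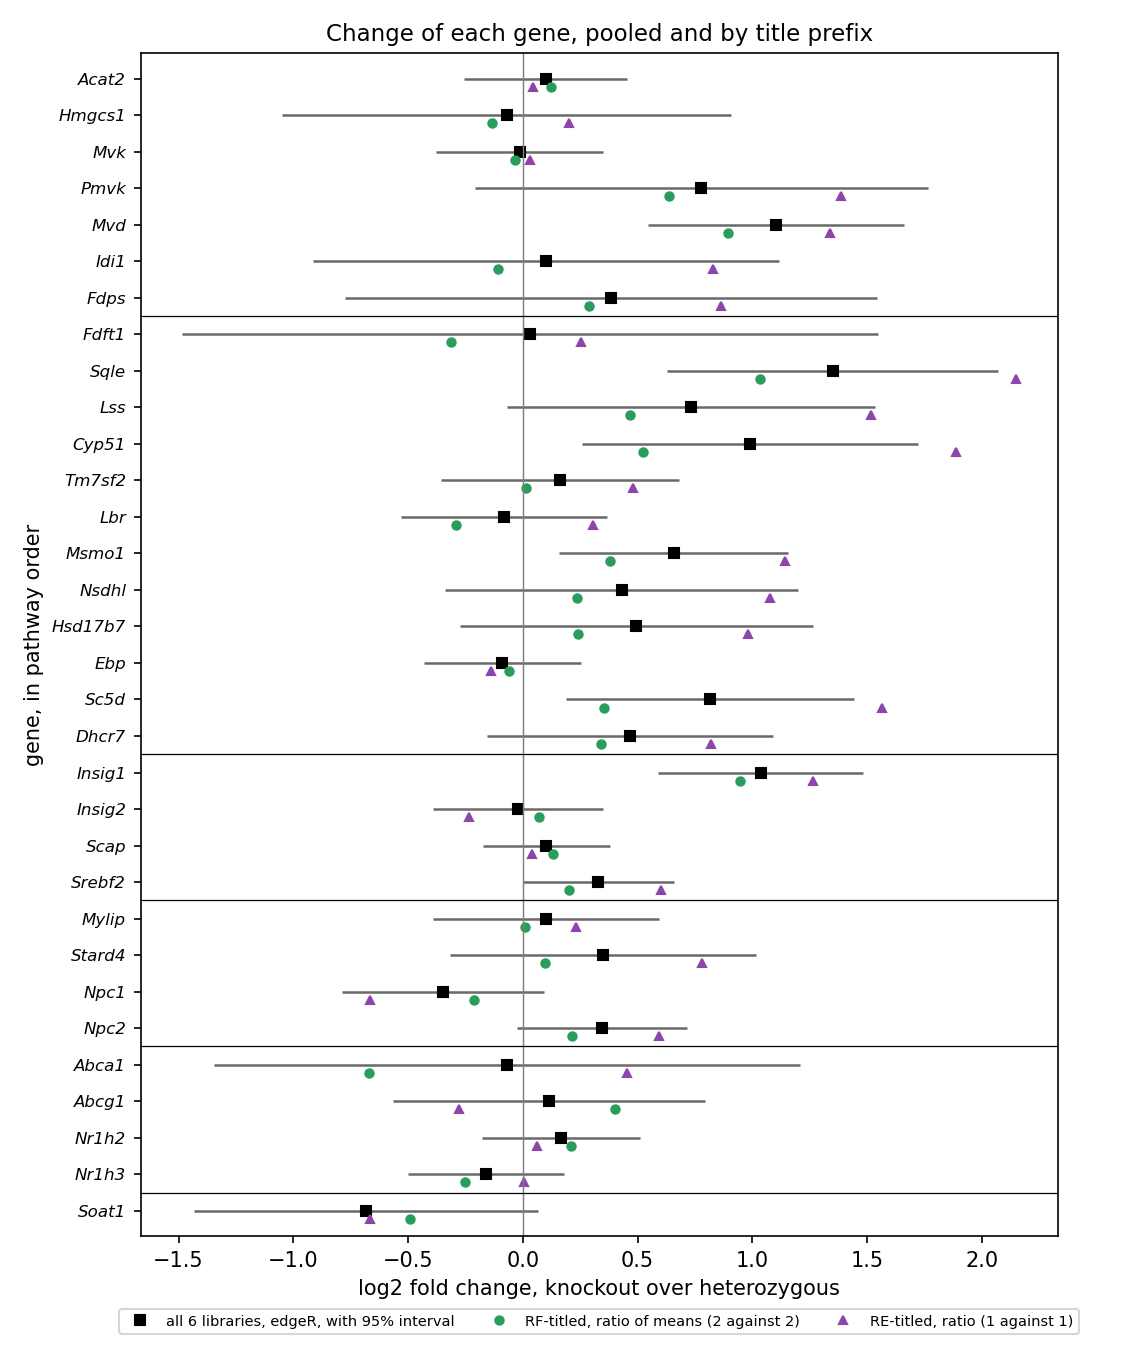
Log2 fold change, knockout over heterozygous, of each of the 32 genes (squares, with 95% intervals from the edgeR fit on 3 against 3 libraries); circles and triangles give the log2 ratio within the RF-titled and RE-titled libraries. For 18 of 19 synthesis genes the RE-titled ratio is above 0, and the intervals of Insig1, Sqle, Mvd, Cyp51, Msmo1 and Sc5d lie above 0 before adjustment.

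In the sterol arm, from squalene onward, the median was 0.48 over 12 genes, 10 of which had values above 0 (53.1% of all genes did). Sqle, the squalene epoxidase (ENSMUSG00000022351.14, chromosome 15, 59315077 to 59331192 on GRCm38, plus strand), stood at 80.5, 57.4 and 73.7 CPM in knockout 1, 2 and 3, against 38.4, 28.5 and 16.2 CPM in heterozygous 1, 2 and 3. The groups were parted by a gap of 1.495 times, and the means were 70.5 ± 11.9 CPM in the knockout-labelled libraries and 27.7 ± 11.1 CPM in the heterozygous-labelled ones (SD, n = 3 each). With a log2 fold change of 1.35 it had the largest difference of the set (SE 0.306, adjusted p = 0.0892 by edgeR and 0.00101 by DESeq2). It was 1.08 without heterozygous 3 and 0.56 with the muscle score as a covariate.

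Cyp51, the demethylase that acts on lanosterol, stood at 113, 69.1 and 146 CPM in knockout 1, 2 and 3, against 69.0, 57.1 and 39.2 CPM in heterozygous 1, 2 and 3 (log2 0.99, SE 0.311, adjusted p = 0.224 by edgeR and 0.0433 by DESeq2). Knockout 2 and heterozygous 1 were all but equal. A later oxidase, Msmo1, stood at 30.6, 24.1 and 37.8 CPM in knockout 1, 2 and 3, against 23.8, 18.0 and 16.9 CPM in heterozygous 1, 2 and 3 (log2 0.66, SE 0.213, adjusted p = 0.237 by edgeR). Sc5d, the lathosterol oxidase, stood at 137, 132 and 247 CPM in knockout 1, 2 and 3, against 113, 97.5 and 83.2 CPM in heterozygous 1, 2 and 3 (log2 0.81, SE 0.266, adjusted p = 0.244 by edgeR). For Cyp51, Msmo1 and Sc5d the groups did not overlap, knockout 3 was the highest library and heterozygous 3 the lowest. With the muscle score as a covariate the log2 fold changes of Cyp51, Msmo1 and Sc5d were 0.35, 0.14 and 0.084. Without knockout 3 those of Cyp51, Msmo1 and Sc5d were 0.72, 0.48 and 0.45.

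Lss, which closes squalene epoxide into lanosterol, stood at 101, 59.0 and 74.8 CPM in knockout 1, 2 and 3, against 61.5, 54.3 and 25.8 CPM in heterozygous 1, 2 and 3, and the groups overlapped through knockout 2 (log2 0.73, SE 0.341, adjusted p = 0.48 by edgeR; 0.26 with the muscle score). The dehydrogenase gene Nsdhl (log2 0.43), the ketosteroid reductase gene Hsd17b7 (0.49) and Dhcr7, which makes the last reduction in one branch (0.47), also had values above 0 with overlapping groups; with the muscle score they were at -0.19, 0.83 and 0.067. The lowest values were those of the isomerase gene Ebp (log2 -0.09) and of Lbr (-0.08), a sterol reductase that is also a protein of the nuclear lamina. Tm7sf2, which encodes the other reductase for the same step, was at 0.16.

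Fdft1, which joins farnesyl units into squalene, followed the title prefix rather than the genotype label. It stood at 122, 128 and 479 CPM in knockout 1, 2 and 3, against 199, 113 and 401 CPM in heterozygous 1, 2 and 3 (log2 0.03, SE 0.645, adjusted p = 0.992 by edgeR). Both RE-titled libraries were above all RF-titled ones, with a log2 difference of 1.66 in a fit that holds genotype (adjusted p = 0.0136 by edgeR). In annotation 774 exonic bases of Fdft1 lie over exons of Ctsb on the opposite strand, and whether counting used strand is not given. Ctsb stood at 1781, 1781 and 2722 CPM in knockout 1, 2 and 3, against 1663, 1504 and 1762 CPM in heterozygous 1, 2 and 3. The prefix difference was of the opposite sign for 3 genes of the mevalonate arm, Fdps (-1.40, adjusted p = 0.0112 by edgeR), Pmvk (-1.12, adjusted p = 0.0222 by edgeR) and Hmgcs1 (-1.06, adjusted p = 0.037 by edgeR). These were 4 of the 32 genes, or 4 of 19 synthesis genes, against 9.35% of all genes called between prefixes, and the RE-titled side had 1 library per label.

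Among the genes that sense sterol, Insig1 had the smallest p of the set. Insig1, whose protein holds SCAP in the endoplasmic reticulum and whose gene is itself switched on by SREBPs (ENSMUSG00000045294.11, chromosome 5, 28071363 to 28078662 on GRCm38, plus strand), stood at 838, 831 and 718 CPM in knockout 1, 2 and 3, against 460, 405 and 299 CPM in heterozygous 1, 2 and 3. The groups were parted by a gap of 1.56 times, the widest of the set, and the means were 796 ± 67.2 CPM in the knockout-labelled libraries and 388 ± 82.2 CPM in the heterozygous-labelled ones (SD, n = 3 each). The log2 fold change was 1.04, with a 95% interval of 0.59 to 1.48 (SE 0.191, adjusted p = 0.0719 by edgeR and 6.41e-05 by DESeq2). It passed with the title prefix as a covariate (1.05, adjusted p = 0.00981 by edgeR) and in the RF-titled libraries alone (0.95, adjusted p = 0.0448 by edgeR), and was 0.59 with the muscle score as a covariate.

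Insig2, which encodes the second retention protein and is not switched on by SREBPs in the same way, stood at 44.4, 45.1 and 33.2 CPM in knockout 1, 2 and 3, against 39.8, 45.5 and 39.1 CPM in heterozygous 1, 2 and 3 (log2 -0.02, SE 0.158, adjusted p = 0.984 by edgeR). Its 95% interval of -0.39 to 0.35 lay below that of Insig1; the difference between the 2 genes was not tested. Srebf2, which encodes SREBP2, stood at 46.01, 45.1 and 46.8 CPM in knockout 1, 2 and 3, against 40.5, 38.7 and 30.6 CPM in heterozygous 1, 2 and 3 (log2 0.33, SE 0.141, adjusted p = 0.418 by edgeR). The groups did not overlap but the gap was small, 1.11 times, and with the muscle score the value was -0.00053. Scap, the SREBP escort, was at 0.10 (SE 0.119).

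**Figure D4:**
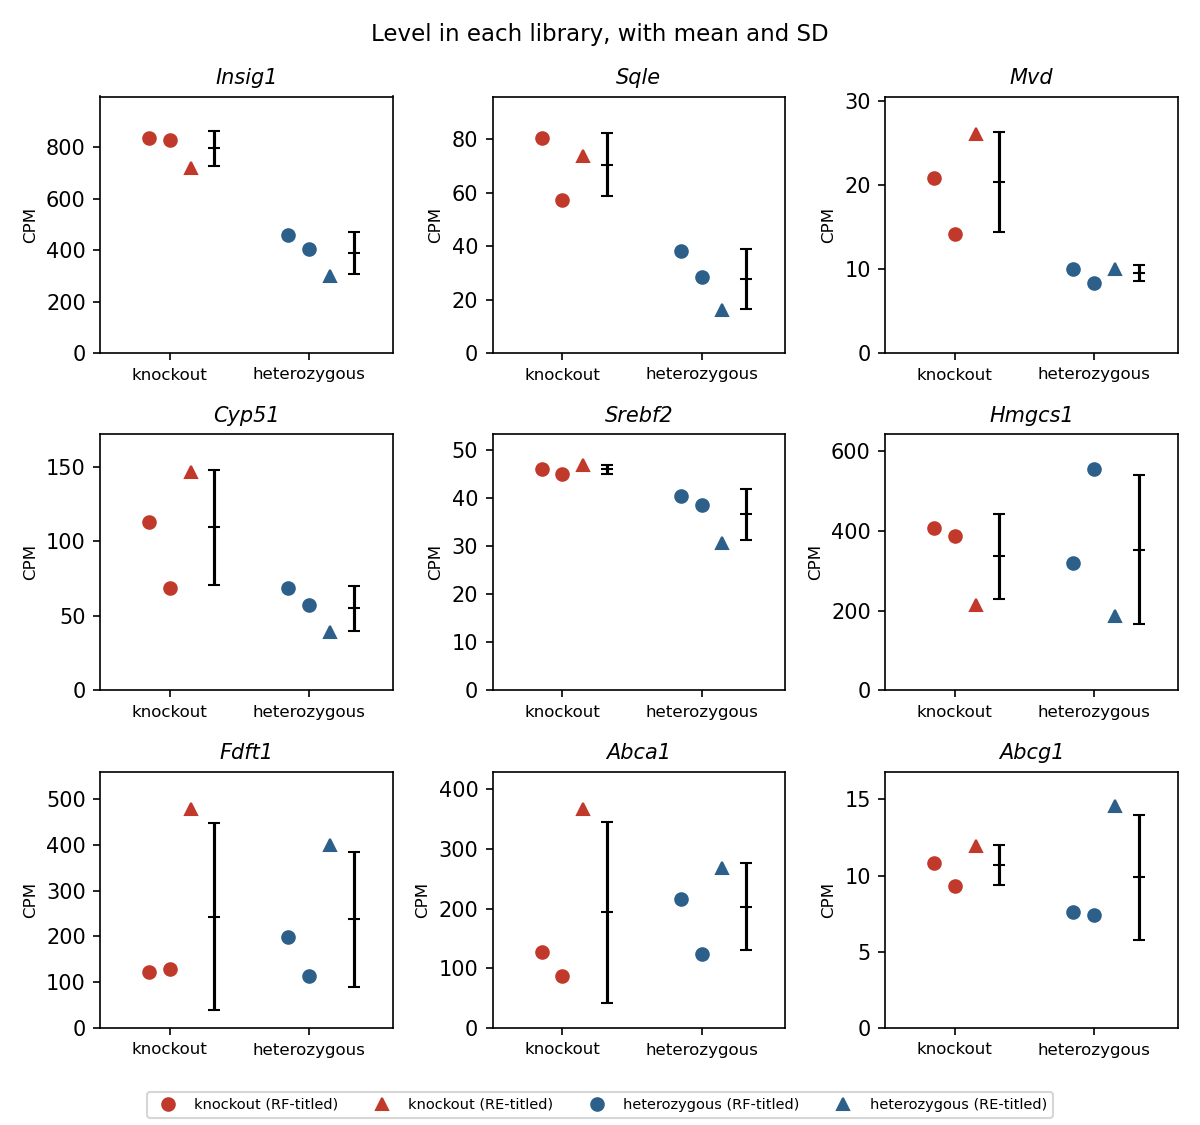
Level in CPM (vertical axes from 0) of 9 genes in each library, with the mean and SD of 3 libraries per label as black bars; circles are RF-titled and triangles RE-titled. Insig1, Sqle, Mvd, Cyp51 and Srebf2 are higher in every knockout-labelled library, while Fdft1, Abca1 and Abcg1 are high in both RE-titled libraries and Hmgcs1 is low in them.

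The genes of uptake control and intracellular transport had groups that overlapped. Npc2 stood at 510, 463 and 577 CPM in knockout 1, 2 and 3, against 467, 371 and 383 CPM in heterozygous 1, 2 and 3 (log2 0.34, SE 0.158, adjusted p = 0.467 by edgeR). Only knockout 2 lay below a heterozygous-labelled library, by a small margin. Its partner Npc1, the membrane protein that takes sterol from NPC2, had a value of the other sign (log2 -0.35, SE 0.188, adjusted p = 0.581 by edgeR). Mylip, an LXR-induced ubiquitin ligase that limits LDL uptake, stood at 50.4, 44.6 and 70.2 CPM in knockout 1, 2 and 3, against 52.7, 41.6 and 59.7 CPM in heterozygous 1, 2 and 3 (log2 0.10, SE 0.211). Stard4, at 6.18, 3.51 and 5.91 CPM in knockout 1, 2 and 3, against 4.43, 4.59 and 3.23 CPM in heterozygous 1, 2 and 3, had both its second lowest and its 2 highest values among the knockout-labelled libraries (log2 0.35, SE 0.285).

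The efflux arm showed no shared direction. Abca1, the transporter that loads cholesterol onto apolipoproteins (ENSMUSG00000015243.4, chromosome 4, 53030787 to 53159895 on GRCm38, minus strand), stood at 127, 87.1 and 368 CPM in knockout 1, 2 and 3, against 217, 124 and 269 CPM in heterozygous 1, 2 and 3. The log2 fold change was -0.07, with a 95% interval of -1.34 to 1.21 (SE 0.543, adjusted p = 0.984 by edgeR), so that these libraries bound it only loosely. Both RE-titled libraries were above all RF-titled ones. Without knockout 3 the value was -0.94, and with the muscle score it was -0.49. Abcg1, which exports sterol to HDL, stood at 10.8, 9.32 and 12.0 CPM in knockout 1, 2 and 3, against 7.63, 7.41 and 14.6 CPM in heterozygous 1, 2 and 3 (log2 0.11, SE 0.29, adjusted p = 0.956 by edgeR). Within the RF-titled libraries the knockout-labelled values were the higher ones, and in the RE-titled pair the lower one. With the muscle score the value of Abcg1 was 0.98.

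The LXR receptors themselves varied little. Nr1h3, LXR alpha, stood at 53.0, 65.6 and 71.6 CPM in knockout 1, 2 and 3, against 75.2, 66.0 and 71.3 CPM in heterozygous 1, 2 and 3 (log2 -0.16, SE 0.146; -0.53 with the muscle score). Nr1h2, LXR beta, was at 0.17 (SE 0.148), and both had 95% intervals that span 0. Soat1, which esterifies cholesterol for storage, stood at 1.79, 1.48 and 2.26 CPM in knockout 1, 2 and 3, against 2.93, 2.07 and 3.88 CPM in heterozygous 1, 2 and 3 (log2 -0.68, SE 0.321, adjusted p = 0.481 by edgeR). Its groups overlapped through knockout 3 and heterozygous 2, and it had the lowest fold change of the 32. Macrophages are rich in Abca1 and Soat1, and 9 matched macrophage markers summed to 174 to 318 CPM in the knockout-labelled libraries and 124 to 301 CPM in the heterozygous-labelled ones. Their sum was highest in the RE-titled libraries, at 318 CPM in knockout 3 and 301 CPM in heterozygous 3, against 124 to 218 CPM in the RF-titled ones, the order also seen for Abca1 and Abcg1. Fibroblast markers had the same order, at 825 CPM in knockout 3 and 890 CPM in heterozygous 3, against 517 to 614 CPM in the RF-titled libraries. Soat1 did not have this order, since knockout 3 (2.26 CPM) lay below heterozygous 1 (2.93 CPM). The part of RNA from either cell type in those levels was not tested.

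Within the title prefixes, the synthesis genes had a median log2 ratio of 0.86 in the RE-titled pair and 0.24 in the RF-titled libraries, and the efflux genes 0.03 and -0.02. The RE-titled ratio was above 0 for 18 of 19 synthesis genes and the RF-titled one for 13. A difference between the prefixes was not tested, since the RE-titled pair has 1 library per label.

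Other genes of the pathway were examined as lists. Of 8 genes of the isoprenoid branches, which use farnesyl diphosphate for other ends, 1 fell and 0 rose, against 0.586% of all genes called in either direction: Pdss2, a subunit of the enzyme that makes the coenzyme Q tail (log2 -1.31, SE 0.161, adjusted p = 0.0259 by edgeR). It averaged 8.13 CPM in the knockout-labelled libraries and 20.1 CPM in the heterozygous-labelled ones. The call was lost without knockout 1, knockout 2 or heterozygous 2 and with the muscle score, where 0 genes in all were called lower. Dhdds and Nus1, which form the dolichol-making prenyltransferase, were at 0.31 and 0.25, and the partner of Pdss2, Pdss1, was at -0.41, with adjusted p values of 0.392, 0.485 and 0.465 by edgeR.

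No gene of the other 5 lists passed by edgeR in either direction, against 0.586% of all genes tested. At an unadjusted p under 0.05 these lists together held 3 higher genes (4.05% of all genes were) and 1 lower gene (8.04%). DESeq2 called 1 sterol transfer gene lower (4.44% of the genes it gave an adjusted p). Among 6 tested redox partners and cofactors, whose median was 0.45, the cytochrome gene Cyb5b was at 0.58 and Cyb5r3, its reductase, at 0.54 (adjusted p = 0.448 and 0.502 by edgeR). The 10 genes of SREBP processing and sterol-regulated degradation had a median of -0.05, with 4 values above 0 and 6 below. Among 17 genes of sterol transfer and lysosomal release, with a median of -0.03, Osbp, a sterol carrier between endoplasmic reticulum and Golgi, was at -0.68 (adjusted p = 0.0939 by edgeR). Of 6 other LXR targets tested, with a median of 0.12, the phospholipid transfer protein gene Pltp was at 0.34 (adjusted p = 0.35 by edgeR). Of 3 oxysterol enzymes tested, with a median of 0.37, Cyp27a1, which adds a hydroxyl to the side chain, was at 0.37.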

How the data were processed

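The authors deposited read counts per gene symbol with 1 column per library, not normalized; per the submitters' processing notes the build was mm10 and the tools included STAR 2.7.2b, Bowtie2 2.3.4.3, HTSeq, SAMtools 1.9, Trim Galore and edgeR, with no roles named. The sources used here do not give the annotation or the strand setting. The counts include a line for reads not aligned uniquely. It held 17.6%, 17.6% and 19.8% of the column in knockout 1, 2 and 3, against 23.8%, 21.8% and 23.1% in heterozygous 1, 2 and 3. Whether such reads were also counted in genes is not stated. Lines that name no gene (41.7% to 56.1% of a column) were left out. Reads counted in genes made up 55.7%, 58.3% and 51.0% of the column in knockout 1, 2 and 3. In heterozygous 1, 2 and 3 they made up 43.9%, 48.4% and 45.8%, so this share did not overlap between labels. RNA came from pulverised frozen tissue, per the labels' protocols.

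Differences were fitted on the whole table by edgeR 4.0.16 under R 4.3.3 (TMM library scaling, a filterByExpr minimum of 10 counts, robust quasi-likelihood F test, Benjamini-Hochberg adjustment at 0.05 over 13300 genes), with DESeq2 1.42.0 as an alternative. CPM uses TMM-scaled library sizes; RPKM divides it by the merged exon length in GENCODE M21. Ratios within a prefix add 0.5 CPM. The RE-titled pair has no test. Replicate numbers follow accession order and pair nothing. Alternatives were other scalings, no filter, each library left out, the muscle score or title prefix as a covariate, RF-titled libraries only, and other choices of efflux and synthesis genes.

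The 32 genes and the lists were chosen with earlier results of these data known. Values in every library were given for the 10 genes with the smallest p and for a fixed set; up to 4 genes of each other list were named by smallest p, and some that this rule picks are not reported here; Pmvk, Fdps and Fdft1 were added after their values were seen. No p is given for a score over the set. Every pair of libraries differed by more than counting noise (chi-square over its degrees of freedom 41.8 or more). P-values set the difference between labels against the spread between these 6 mice, with each gene's spread drawn toward that of other genes. In the main fit this spread includes any difference between title prefixes.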

Additional observations from a re-analysis of the deposited data

How the results depend on the processing

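No paired analysis was possible because the labels give the groups no shared replicate numbers. Over 416 values of the 32 genes under alternatives, 373 kept direction and side of the threshold, 9 newly passed and 34 changed sign, and for 17 genes no value did. The count of the set called higher, 0, was 4 by DESeq2, 2 with the title prefix as a covariate, 1 in the RF-titled libraries alone and 0 to 2 with single libraries left out (2 without heterozygous 1); none was called lower under any alternative. Over all genes, 7 called higher became 13 with no filter, 67 with the prefix, 19 in the RF-titled libraries, 117 by DESeq2 and 0 with the muscle score, and 0 to 19 with a library left out; 71 called lower became 244 with the prefix, 113 in the RF-titled libraries, 638 by DESeq2 and 0 with the muscle score, and 0 to 381 with a library left out. Both counts were 0 without knockout 1, knockout 2 or heterozygous 2. The muscle score leaves 3 residual degrees of freedom, and every adjusted p of the set was then 1.

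The synthesis median ran from 0.24 to 0.68 with single libraries left out and was 0.084 with the muscle score. The efflux median ran from -0.13 to 0.15, and changed sign with library size only (-0.063) and in the RF-titled libraries (-0.023). The difference ran from 0.099 to 0.71, and was 0.33 to 0.41 with other choices of efflux genes. With the muscle score Acat2 was at -0.044, Hmgcs1 at 0.13, Idi1 at -0.57, Fdps at -0.20, Tm7sf2 at -0.34, Nsdhl at -0.19, Insig2 at 0.15, Srebf2 at -0.00053 and Npc2 at -0.0075; Mvk was at -0.37, Fdft1 at 0.17, Lbr at -0.17, Ebp at -0.14, Mylip at 0.039, Npc1 at -0.57 and Nr1h2 at 0.040, with their sign kept. In the RF-titled libraries Idi1 was at -0.11, Fdft1 at -0.32 and Insig2 at 0.068, and Fdft1 was at -0.12 with the prefix and -0.080 with library size only. With single libraries left out Hmgcs1 ran from -0.38 to 0.42, Mvk from -0.092 to 0.090, Idi1 from -0.25 to 0.53, Fdft1 from -0.93 to 0.64, Lbr from -0.27 to 0.012, Insig2 from -0.095 to 0.10, Mylip from -0.12 to 0.23, Abca1 from -0.94 to 0.28 and Abcg1 from -0.054 to 0.51. The causes were not tested.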

Other observations

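Fatty acid synthesis genes that SREBP1 controls were examined beside the sterol genes. Of 12 tested, 0 passed by edgeR, and 2 had an unadjusted p under 0.05, both higher (4.05% of all genes were). DESeq2 called 1 higher (0.815% of the genes it gave an adjusted p). The median log2 fold change was 0.58, and 11 of the 12 values were above 0, beside 53.1% of all genes tested. Their summed level was 213251, 159779 and 199582 CPM in knockout 1, 2 and 3, against 143889, 141168 and 63880 CPM in heterozygous 1, 2 and 3. Heterozygous 3, the lowest, was also the library highest in muscle markers, and the part of muscle RNA in these values was not tested. Scd2, a desaturase, averaged 1905 CPM in the knockout-labelled libraries and 505 CPM in the heterozygous-labelled ones (log2 1.91, adjusted p = 0.0593 by edgeR), and the groups did not overlap. Acly, which supplies acetyl-CoA to both fatty acid and sterol synthesis, averaged 9154 CPM in the knockout-labelled libraries and 5005 CPM in the heterozygous-labelled ones (log2 0.87, adjusted p = 0.408 by edgeR). Gpam, which starts glycerolipid synthesis, was the gene below 0 (log2 -0.50, adjusted p = 0.42 by edgeR).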
